A study of Mus musculus with 34 samples.

Results

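Thoracic spinal cord from trkB.T1 knockout (KO) mice was compared with that of trkB.T1 wild-type (WT) mice 3 days after a moderate contusion, on 5 KO arrays and 4 WT arrays chosen by their titles, 9 of the 34 arrays of the study. Per the labels all animals were of the strain C57BL/6J, backcrossed for more than 20 generations, and 8 to 12 weeks old. The same contusion was given to both genotypes, and every array was titled a biological replicate. The other groups were taken at day 1 (4 KO, 5 WT) and day 7 (4 KO, 4 WT) after contusion, or were labelled sham (4 KO, 4 WT). The labels do not say in which cells or how the trkB.T1 form was removed, nor whether an array held RNA of 1 animal or of a pool.

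Ntrk2 encodes TrkB, to which brain-derived neurotrophic factor (BDNF) binds. Splicing gives a full-length receptor with an intracellular tyrosine kinase, carried mainly by neurons, and the truncated trkB.T1, which binds the same ligand but has a short intracellular tail without kinase activity and is abundant in astrocytes. In the days after a contusion, resident microglia divide, blood monocytes enter the lesion and become macrophages, and myelin and dead cells are taken up, and immune and cell cycle transcripts are known to be high in the injured cord at this stage.

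Expression was given as log2 signal per probe set, a group of probes that reads 1 transcript or a part of it. Of 45101 probe sets, 24573 passed a filter of log2 4 or more in at least 4 of the 34 arrays, and they stood for 11998 genes. Medians of the day 3 arrays lay between 4.27 and 4.39, and 33.7% of all values of the study lay within 0.1 of the lowest value, 2.17. Markers of spinal cord were present at day 3 in both genotypes, with 15.57 ± 0.05 in KO cords (SD, n = 5) and 15.63 ± 0.02 in WT cords (SD, n = 4) for the myelin gene Mbp and 14.32 ± 0.46 in KO cords (SD, n = 5) and 14.53 ± 0.22 in WT cords (SD, n = 4) for the neuronal gene Snap25. The macrophage marker Cd68 averaged 11.37 ± 0.54 in KO cords (SD, n = 5) and 10.77 ± 0.47 in WT cords (SD, n = 4). Xist stayed at or below 2.24 and the Y-linked Eif2s3y at or above 9.67 on its brighter probe set in all 9 arrays, so the day 3 cords had 1 sex pattern.

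Of the 9 arrays, 3 stood apart from the others of their genotype, and this bears on every result that follows. The count of probe sets more than 1 log2 unit from the mean of the other arrays of the same group was 1577 for KO replicate 3, 835 for KO replicate 4 and 2577 for WT replicate 2. The other 3 KO arrays, replicates 1, 2 and 5, had 235, 547 and 675, and the other WT arrays, replicates 1, 3 and 4, had 196, 336 and 420. Arrays of the sham, day 1 and day 7 groups had between 41 and 495. The first 3 principal components of the day 3 arrays held 38.5%, 29.4% and 14.1% of the variance, and their most distant arrays were KO replicate 3, WT replicate 2 and KO replicate 4 in turn. None of the 3 separated the genotypes. The median array correlation was no higher within a genotype (0.973 for KO with KO, 0.976 for WT with WT) than between genotypes (0.981). The ranges were 0.944 to 0.993, 0.958 to 0.993 and 0.933 to 0.993 in the same order. Results that rest on these arrays are given with and without them.

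Among the comparison groups, 1 array went against its label. On 1420838_at, a probe set of the targeted gene Ntrk2, the array labelled sham KO replicate 2 read 9.46, against 3.31 to 4.91 in the other 3 sham KO arrays and 10.19 to 10.67 in sham WT arrays. On 1435196_at it read 8.59, against 2.83 in the other 3 sham KO arrays and 9.58 to 9.84 in sham WT arrays. It lay near the WT level on both, and each of the other 16 KO arrays of the study read 4.94 or less. The array enters the sham values and the spread pooled over the groups, so both are given without it where they bear on a result. Without it 9 probe sets passed between the genotypes at day 3, as with it.

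**Figure D1:**
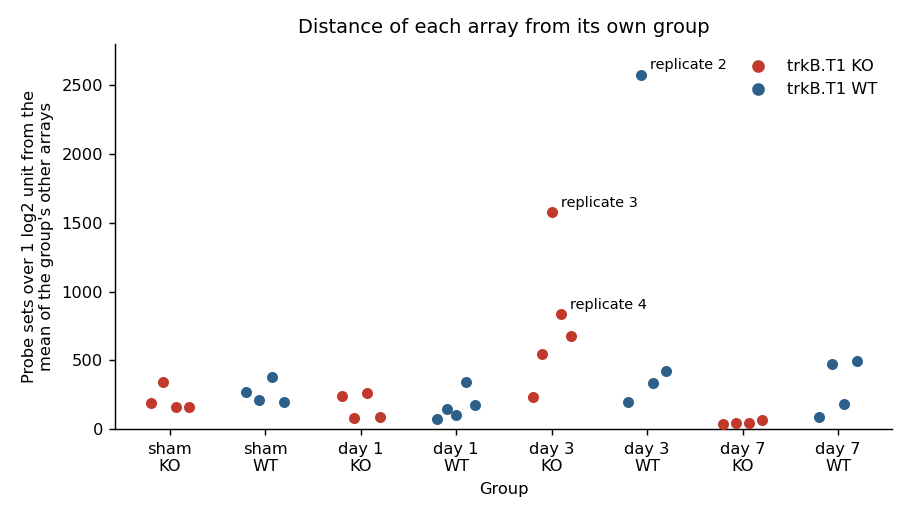
Number of probe sets (vertical axis) that lay more than 1 log2 unit from the mean of the other arrays of the same group, for each of the 34 arrays, by group (horizontal axis); each point is 1 array, KO in red and WT in blue. WT replicate 2 at 2577 and KO replicates 3 and 4 at 1577 and 835 are the highest of the day 3 arrays, and arrays of the other time points lie between 41 and 495.

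Few probe sets passed the test between the genotypes at day 3. Of 24573 probe sets, 9 (0.0366%) passed an adjusted p of 0.05 in limma's moderated test, 5 of them higher in KO (0.0203%) and 4 lower (0.0163%). They were 2 probe sets of Ntrk2, 2 of Cd59a, 1 each of Dapk1, Insig1 and Nkd1, and 2 that carry no gene name in the platform table. Counted by genes, each taken by its brightest probe set, 4 of 11998 (0.0333%) passed, and the median difference over all genes was -0.002. Ntrk2 was not among the 4, as its brightest probe set, 1458622_at, did not pass (adjusted p = 0.686). With the mean of all tested probe sets of a gene, 5 genes passed the same test. Ntrk2 was then among them (difference -2.015, adjusted p = 1.71e-05). At an unadjusted p of 0.05, 2603 probe sets (10.6%) were on the list, 1425 higher in KO (5.8%) and 1178 lower (4.79%). All KO arrays lay above all WT arrays in 106 probe sets (0.431%) and below them in 87 (0.354%).

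The spread behind these tests was pooled over the 8 groups, and the day 3 groups were the most variable of them. The median standard deviation of a probe set was 0.221 among the KO arrays and 0.214 among the WT arrays at day 3, against 0.093 to 0.157 in the other 6 groups. With the spread taken from the 9 day 3 arrays alone, 2 probe sets passed, both of Ntrk2, and the adjusted p was 0.14 for Dapk1, 0.407 and 0.471 for the Cd59a probe sets and 0.985 for Insig1 and Nkd1.

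Ntrk2 itself was read by 8 probe sets, of which 6 were tested. On 1420838_at the KO arrays gave 3.12, 4.02, 3.31, 4.94 and 4.09, against 10.72, 10.82, 10.46 and 10.62 in WT arrays. The groups were far apart, with KO lower by 6.76 ± 0.63 on the log2 scale (108-fold, adjusted p = 3.32e-07). Without the array labelled sham KO replicate 2 in the pooled spread its standard error was 0.28 (adjusted p = 4.79e-16). On 1435196_at every KO array read 2.83, its floor, against 9.27, 8.65, 9.01 and 9.42 in WT arrays, and the difference of -6.26 ± 0.63 (adjusted p = 1.22e-06) is a lower bound. Both probe sets passed, lower in KO, in all 21 alternative analyses.

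The other 4 tested Ntrk2 probe sets did not pass the test. On 1435305_at the KO arrays read 9.77, 9.96, 8.77, 9.15 and 9.99, against 9.14, 8.86, 8.90 and 9.46 in WT arrays, a difference of 0.44 ± 0.18 (adjusted p = 0.414). Without the 3 arrays that stood apart it was 0.74 (adjusted p = 0.0575). On 1437560_at and 1458622_at the differences were 0.32 and 0.22 (adjusted p = 0.572 and 0.686), and 0.59 and 0.53 (adjusted p = 0.86 and 0.638) without the 3 arrays that stood apart. KO replicates 3 and 4 gave the lowest KO readings on all 3 of these probe sets. In the same order the 3 also read higher in KO by 0.56, 0.61 and 0.61 on day 1 and by 0.66, 0.79 and 0.63 on day 7. In sham they did so by 0.26, 0.22 and 0.20, or 0.25, 0.21 and 0.18 without the array labelled sham KO replicate 2. The dim 1446712_at differed by -0.05, with groups that overlapped. Another 2, 1420837_at and 1444121_at, stayed at or below 3.41 and 2.69 on all 34 arrays and were not tested. The sources used here do not give which of the probe sets lie in the T1 exon and which in the kinase exons.

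**Figure D2:**
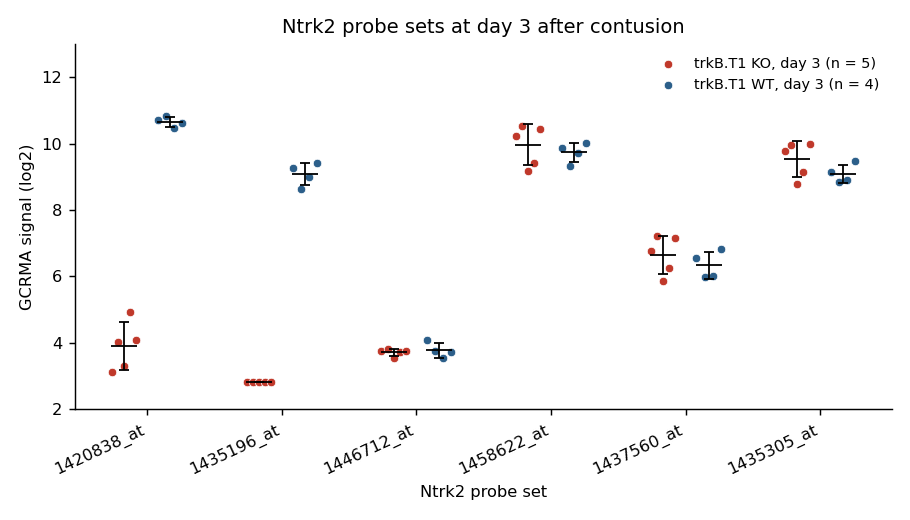
Log2 signal (vertical axis) of the 6 tested Ntrk2 probe sets (horizontal axis) in the 5 KO arrays (red, left) and 4 WT arrays (blue, right) at day 3; points are arrays, and bars are mean ± SD. The KO arrays lie between 2.83 and 4.94 on 1420838_at and 1435196_at, where WT arrays lie between 8.65 and 10.82, and the groups overlap on the other 4.

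The neurotrophin system was also read as a list. The highest difference in it, 0.224, is that of Ntrk2 on its brightest probe set, 1458622_at. The list thus counts Ntrk2 by a probe set that did not pass, not by those that did. Of 12 listed neurotrophins and receptors, 7 were tested by their brightest probe sets, none passed the threshold, and their median difference was -0.08. Bdnf, the main TrkB ligand, read 6.40, 7.10, 5.21, 5.53 and 6.77 in KO arrays, against 6.87, 7.496, 6.19 and 6.72 in WT arrays, a difference of -0.62 ± 0.27 (unadjusted p = 0.0308, adjusted p = 0.441). KO replicates 3 and 4 gave the lowest Bdnf readings, and the groups overlapped. Ntrk3, the receptor of neurotrophin-3, and Ngfr, the p75 receptor, differed by -0.10 and -0.02.

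Cd59a and Dapk1 were higher in KO cords. Cd59a encodes a membrane protein that blocks the final, pore-forming step of complement. On 1418710_at the KO arrays read 9.80, 10.14, 10.03, 10.32 and 10.28, against 9.21, 9.08, 9.49 and 9.05 in WT arrays, a difference of 0.91 ± 0.11 (1.88-fold, adjusted p = 1.8e-05). Its second probe set, 1429830_a_at, read 9.01, 9.44, 9.45, 9.73 and 9.55 in KO arrays, against 8.53, 8.11, 8.52 and 8.25 in WT arrays, a difference of 1.09 ± 0.13 (adjusted p = 1.38e-05). Neither pair of groups overlapped, and without the 3 arrays that stood apart the differences were 0.82 and 0.90 (both with adjusted p = 0.00438).

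Dapk1 encodes death-associated protein kinase 1, a calmodulin-regulated kinase with roles in cell death and autophagy. The KO arrays read 7.56, 7.497, 7.31, 7.51 and 7.53, against 6.84, 6.42, 6.28 and 6.40 in WT arrays, a difference of 0.99 ± 0.14 (1.99-fold, adjusted p = 0.00023). The groups did not overlap, and the 5 KO arrays had an SD of 0.10, against 0.24 for the 4 WT arrays. With the 3 arrays that stood apart left out, the difference was 1.02 (adjusted p = 0.0085).

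Both genes also had a positive genotype difference in the other groups. Beside 0.91 at day 3, Cd59a on 1418710_at differed by 0.86 on day 1, 0.91 on day 7 and 0.87 in sham cords, or 0.99 in sham without the array labelled sham KO replicate 2. Beside 0.99 at day 3, Dapk1 differed by 0.95 on day 1, 1.00 on day 7 and 0.66 in sham cords, or 0.74 without that array. The tests of day 3 against each other time point gave an adjusted p of at least 0.797 for either gene.

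Dapk1 lies on the chromosome of Ntrk2, 12 protein-coding genes away in the RefSeq order of assembly GRCm38.p6. Of the 30 protein-coding genes on each side of Ntrk2, 28 were tested, and Dapk1 was the 1 that passed. Of these 28, 5 had an unadjusted p under 0.05, 4 of them higher in KO, where 11.3% of all genes had such a p and 6.89% were higher. The median difference of the 28 was 0.008. Aopep, which encodes aminopeptidase O, lies 42 protein-coding genes away on the same chromosome. Its brighter probe set, 1460695_a_at, read 8.57, 8.22, 8.95, 8.88 and 8.00 in KO arrays, against 7.85, 7.96, 7.60 and 7.71 in WT arrays (difference 0.74 ± 0.17, adjusted p = 0.123), with no overlap. Its dimmer probe set, 1435089_at, differed the other way, by -0.56 ± 0.15 (adjusted p = 0.23), and by -0.93 (adjusted p = 0.00183) without the 3 arrays that stood apart, so no direction is given for the gene. The 2 probe sets were opposed in the other groups too. In sham, day 1 and day 7 cords the brighter differed by 0.405, 0.34 and 0.14, and the dimmer by -0.63, -0.96 and -1.06. Without the array labelled sham KO replicate 2 the brighter differed by 0.52 in sham.

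The 2 probe sets with no gene name had the largest positive differences that passed. On 1455869_at the KO arrays read 10.14, 10.11, 10.30, 11.09 and 10.17, against 7.90, 4.68, 7.77 and 8.59 in WT arrays, a difference of 3.13 ± 0.56 (adjusted p = 0.0178). On 1431213_a_at they read 9.21, 9.43, 9.56, 10.33 and 9.22, against 6.89, 5.65, 6.96 and 7.97 in WT arrays, a difference of 2.68 ± 0.39 (adjusted p = 0.000661). Both sets of groups were apart, and on both the lowest WT reading was that of replicate 2. With the 3 arrays that stood apart left out, the differences were 2.05 (adjusted p = 0.491) and 2.01 (adjusted p = 0.128). Both also read higher in KO in the other groups. On 1455869_at the difference was 2.53 on day 1, 2.185 on day 7 and 1.84 in sham. On 1431213_a_at it was 2.09, 2.21 and 1.07. The sham values were 1.94 and 1.15 without the array labelled sham KO replicate 2. The tests of day 3 against each other time point gave an adjusted p of at least 0.641 for both.

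**Figure D3:**
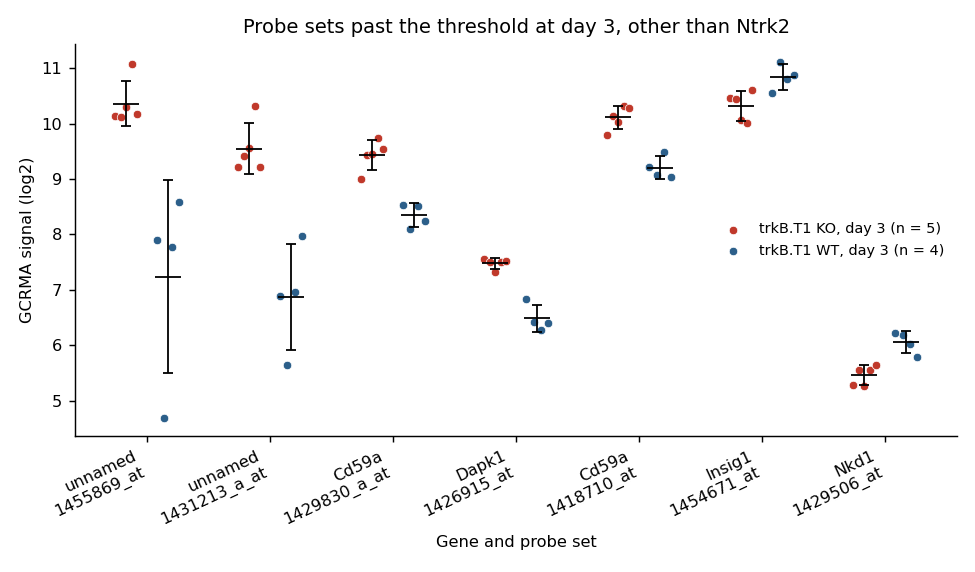
Log2 signal (vertical axis) of the 7 probe sets other than those of Ntrk2 that passed the threshold at day 3 (horizontal axis, gene and probe set), in the 5 KO arrays (red, left) and 4 WT arrays (blue, right); points are arrays, and bars are mean ± SD. Dapk1 reads 7.31 to 7.56 in KO arrays and 6.28 to 6.84 in WT arrays, and Insig1, whose groups overlap, reads 10.02 to 10.62 in KO arrays and 10.56 to 11.12 in WT arrays.

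Insig1 and Nkd1 were lower in KO cords. Insig1 encodes an endoplasmic reticulum protein that holds back the sterol-sensing SREBP pathway and is itself a target of it. Its only tested probe set, 1454671_at, read 10.47, 10.45, 10.06, 10.02 and 10.62 in KO arrays, against 10.56, 11.12, 10.81 and 10.87 in WT arrays, so the groups overlapped, and it fell by 0.52 ± 0.10 on the log2 scale (1.43-fold, adjusted p = 0.039). Without the 3 arrays that stood apart the difference was -0.24 (adjusted p = 0.863). Nkd1 encodes an intracellular inhibitor of Wnt signalling. On 1429506_at the KO arrays read 5.28, 5.56, 5.27, 5.56 and 5.64, against 6.23, 6.19, 6.03 and 5.79 in WT arrays, with no overlap, and it fell by 0.59 ± 0.11 on the log2 scale (adjusted p = 0.0407). Its second probe set, 1417278_a_at, differed by -0.20 (adjusted p = 0.648), the third lay near its floor, and without the 3 arrays that stood apart the first gave -0.52 (adjusted p = 0.565).

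In sham cords the genotype difference was -0.06 for Insig1 and 0.12 for Nkd1, or -0.08 and 0.18 without the array labelled sham KO replicate 2. It was 0.04 and -0.03 for these genes on day 1, and 0.01 and 0.05 on day 7. The test of the day 3 difference against those of sham, day 1 and day 7 did not pass for either gene (adjusted p = 0.697, 0.0685 and 0.572 for Insig1, and 0.445, 0.125 and 0.572 for Nkd1).

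Genes of cholesterol synthesis were lower in KO cords as a group of values, of which 1 passed. The cord makes its own cholesterol, mostly for myelin, through the mevalonate pathway, and SREBP2 raises the genes of this pathway when cell sterols are low. Of 20 listed genes 17 were tested, and all 17 had a lower mean in KO. In bulk RNA, fewer cells of a type and less RNA per cell cannot be told apart, here and in the lists that follow. Of all genes, 49.4% were higher in KO. Among the 17, 1 (Insig1) passed the threshold and 7 had an unadjusted p under 0.05, all lower, where 4.43% of all genes were lower at that level. Their median difference was -0.17. The list mean per array was 8.96, 9.13, 8.85, 8.96 and 9.25 in KO arrays, against 9.27, 9.05, 9.41 and 9.28 in WT arrays, so that KO replicates 2 and 5 lay within the WT range. With the 3 arrays that stood apart left out, 0 of 17 were higher in KO, 5 had an unadjusted p under 0.05 and the median was -0.21. Without KO replicates 1 and 3 these were 2, 4 and -0.12.

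Hsd17b7, a reductase of the later sterol steps, read 8.78, 9.08, 8.82, 8.94 and 9.10 in KO arrays, against 9.25, 10.06, 9.47 and 9.12 in WT arrays (difference -0.53 ± 0.11, adjusted p = 0.111). All 3 of its probe sets had groups that did not overlap, with differences of -0.53, -0.57 and -0.59. Taken as the mean of the 3, the gene differed by -0.56 with an adjusted p of 0.0365, and WT replicate 2 gave the highest reading on each. With the 3 arrays that stood apart left out, the brightest probe set differed by -0.29 (adjusted p = 0.86).

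Sc5d, a desaturase that puts a double bond into the sterol ring, read 9.89, 10.05, 9.80, 9.86 and 10.04 in KO arrays, against 10.21, 10.28, 10.37 and 10.45 in WT arrays (difference -0.40 ± 0.09, adjusted p = 0.123). These groups did not overlap either, although a dimmer second probe set differed by -0.04. Msmo1, a sterol methyl oxidase, read 10.75, 10.95, 10.66, 10.71 and 11.05 in KO arrays, against 11.10, 10.998, 11.38 and 11.11 in WT arrays (difference -0.32 ± 0.09, adjusted p = 0.302). In Msmo1 the highest KO reading lay above the lowest WT reading. The median genotype difference of the list was -0.11 in sham (-0.13 without the array labelled sham KO replicate 2), -0.07 on day 1 and -0.09 on day 7, and 0 of the 17 differed between day 3 and day 1 at the threshold.

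Because these genes read lower together, the promoters of the 3 with the smallest p are shown, from 250 bases before to 50 bases after the RefSeq start in assembly GRCm38.p6, 5′ to 3′ on the gene's strand. Capitals mark ATTGG or its reverse complement CCAAT, the box read by the factor NF-Y. Insig1 is at chr5:28071162-28071461 on the plus strand, Hsd17b7 at chr1:169969156-169969455 on the minus strand and Sc5d at chr9:42264251-42264550 on the minus strand.
Insig1: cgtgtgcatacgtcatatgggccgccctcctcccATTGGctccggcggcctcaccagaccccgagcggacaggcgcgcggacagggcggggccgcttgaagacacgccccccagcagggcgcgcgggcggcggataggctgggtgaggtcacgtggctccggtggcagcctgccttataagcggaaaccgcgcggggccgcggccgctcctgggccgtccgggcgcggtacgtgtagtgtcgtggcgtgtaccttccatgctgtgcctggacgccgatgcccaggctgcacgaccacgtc
Hsd17b7: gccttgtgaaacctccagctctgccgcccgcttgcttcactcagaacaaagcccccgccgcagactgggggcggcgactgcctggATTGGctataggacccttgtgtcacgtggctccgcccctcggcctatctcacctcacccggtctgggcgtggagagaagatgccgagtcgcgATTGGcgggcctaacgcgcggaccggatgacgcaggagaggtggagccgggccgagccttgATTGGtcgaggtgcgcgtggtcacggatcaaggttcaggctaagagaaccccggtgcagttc
Sc5d: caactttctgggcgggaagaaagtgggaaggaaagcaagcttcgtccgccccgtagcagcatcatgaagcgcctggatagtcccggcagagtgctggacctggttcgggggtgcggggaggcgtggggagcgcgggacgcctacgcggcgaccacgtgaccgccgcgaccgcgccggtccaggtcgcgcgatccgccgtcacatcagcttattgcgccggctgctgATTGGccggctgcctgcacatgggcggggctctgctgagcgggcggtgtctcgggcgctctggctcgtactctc
Insig1 and Sc5d hold 1 such box each and Hsd17b7 holds 3. Taking the window listed first for each gene, 13 of the 14 tested list genes with a window hold ATTGG on either strand, where 37.9% of 27025 genes do. A second motif searched on both strands, TCACNCCAC, was in 1 of the 14 windows, that of Hmgcs1, and in 1.22% of all. Each motif was searched on its own, with overlaps allowed, and these matches describe the letters only.

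Beyond the genes that passed, the smallest p-values named 8 further genes higher in KO and 8 lower, none past the threshold. Picking by p favours groups that do not overlap. Of all genes, 0.433% had every KO array above every WT array and 0.367% every KO array below. On the higher side stood Tlr1, a Toll-like receptor for bacterial lipopeptides, Hpse, the enzyme that cuts heparan sulfate, Ltc4s, leukotriene C4 synthase, and Pik3r5, a regulatory subunit of the PI3-kinase of leukocytes. Pla2g15, a lysosomal phospholipase, Cenpn, a centromere protein, and Coro1a, an actin regulator of leukocytes, were the others beside Aopep.

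Tlr1 read 7.11, 6.22, 6.93, 7.25 and 6.34 in KO arrays, against 6.42, 5.28, 6.12 and 5.93 in WT arrays (difference 0.83 ± 0.18, adjusted p = 0.111). Hpse read 5.27, 4.47, 5.06, 6.51 and 4.55 in KO arrays, against 4.28, 2.23, 4.37 and 3.83 in WT arrays (difference 1.49 ± 0.33, adjusted p = 0.123). Coro1a read 9.79, 9.48, 10.11, 10.20 and 9.52 in KO arrays, against 9.38, 9.27, 9.45 and 9.30 in WT arrays (difference 0.47 ± 0.11, adjusted p = 0.159). The groups overlapped in Tlr1 and not in Hpse or Coro1a. WT replicate 2 was the lowest WT array in all 3 genes, and KO replicate 4 the highest KO array. Differences of Ltc4s, Pik3r5, Pla2g15 and Cenpn were 1.29, 0.88, 0.81 and 0.96 (adjusted p = 0.123 to 0.143), and 0.60, 0.30, 0.37 and 0.53 (each with an adjusted p of 1) without the 3 arrays that stood apart. Without the 3 arrays that stood apart the differences of Tlr1, Hpse and Coro1a were 0.40, 0.60 and 0.22, each with an adjusted p of 1.

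On the lower side, beside Hsd17b7 and Sc5d, stood Cth, cystathionine gamma-lyase of cysteine synthesis, Ercc8, a factor of transcription-coupled DNA repair, Tnks, the poly-ADP-ribose polymerase tankyrase, Sytl2, a Rab27 effector of vesicle transport, Tmem125 and D130037M23Rik. Cth read 4.92, 5.20, 4.92, 5.11 and 5.49 in KO arrays, against 5.86, 6.87, 5.40 and 8.50 in WT arrays (difference -1.53 ± 0.33, adjusted p = 0.111). The WT readings ranged over more than 3 log2 units, with replicate 4 the highest and replicate 3 below the highest KO array. Ercc8 read 4.32, 3.89, 4.18, 3.24 and 3.55 in KO arrays, against 4.46, 4.99, 4.53 and 4.43 in WT arrays (difference -0.77 ± 0.17, adjusted p = 0.123), close to the lowest levels tested. Sytl2, Tnks, Tmem125 and D130037M23Rik differed by -0.25, -0.37, -0.51 and -1.25, and in these 4 genes the groups did not overlap. The same 4 differed by -0.22, -0.20, -0.42 and -0.63 without the 3 arrays that stood apart, and Cth and Ercc8 by -1.39 and -0.55 (adjusted p = 0.638 to 1 over the 6 genes). On a second, dimmer Tmem125 probe set, 1442040_at, the groups overlapped and the difference with all arrays was -0.30 (adjusted p = 0.451).

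Immune genes read higher in KO cords at day 3, with no member past the threshold. The counts at an unadjusted p of 0.05 are set against 11.3% of all genes, 6.89% higher and 4.43% lower. Of 13 tested genes of MHC class I and II antigen presentation, 13 had a higher mean in KO, 6 of them at that level, with a median difference of 0.42. Of 11 complement and Fc receptor genes 11 were higher, 6 at that level (median 0.41). Of 10 homeostatic microglia genes 10 were higher, 4 at that level (median 0.38), but without WT replicate 2 alone 7 were higher and the median was 0.046. Of 24 macrophage and phagocyte genes 24 were higher, 7 at that level (median 0.29). Chemokines and cytokines were higher in 13 of 19 with 8 at that level (median 0.52), and interferon-induced genes in 13 of 16 with 3 at that level (median 0.51).

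By array, the MHC list mean was 8.41, 7.77, 8.93, 8.57 and 8.10 in KO arrays, against 8.06, 7.25, 8.09 and 7.96 in WT arrays. The complement and Fc receptor mean was 10.70, 10.26, 10.93, 11.23 and 10.33 in KO arrays, against 10.43, 10.12, 10.37 and 10.18 in WT arrays. KO replicates 3 and 4 were the highest 2 arrays and WT replicate 2 the lowest in both lists, and KO replicates 2 and 5 read within 0.1 of the WT range or inside it. The homeostatic microglia mean was 8.69, 8.65, 8.23, 8.73 and 8.83 in KO arrays, against 8.59, 7.16, 8.42 and 8.68 in WT arrays, with WT replicate 2 more than 1 log2 unit below the other 8 arrays and KO replicate 3 the lowest KO array.

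H2-K1, a class I heavy chain, read 10.52, 9.97, 10.81, 10.61 and 9.91 in KO arrays, against 10.04, 9.84, 10.003 and 9.90 in WT arrays (difference 0.42 ± 0.14, adjusted p = 0.373). Cd74, the class II invariant chain, read 6.04, 5.15, 6.89, 6.67 and 5.95 in KO arrays, against 5.66, 3.80, 5.87 and 5.03 in WT arrays (difference 1.05 ± 0.36, adjusted p = 0.381). Fcgr4, a receptor for IgG, read 7.39, 6.65, 8.00, 8.39 and 6.79 in KO arrays, against 6.68, 6.63, 6.72 and 6.37 in WT arrays (difference 0.84 ± 0.34, adjusted p = 0.412). In all 3 genes KO replicates 3 and 4 were the highest 2 arrays, and WT replicate 2 was lowest in H2-K1 and Cd74. Ccl8, a monocyte chemokine, read 9.52, 4.63, 8.10, 6.02 and 5.41 in KO arrays, against 5.82, 3.85, 4.81 and 5.31 in WT arrays (difference 1.79 ± 0.58, adjusted p = 0.373), where KO replicate 1 was the highest. Tmem119, a microglia marker, read 7.20, 7.23, 7.72, 7.58 and 7.55 in KO arrays, against 7.17, 5.25, 7.18 and 7.25 in WT arrays (difference 0.74 ± 0.30, adjusted p = 0.409), and 3 of the 4 WT arrays lay within 0.1 of each other.

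Without KO replicates 3 and 4 and WT replicate 2, no member of these 6 lists had an unadjusted p under 0.05. The medians were then 0.09 for MHC, 0.06 for complement and Fc receptors, 0.13 for homeostatic microglia, -0.02 for macrophages, 0.04 for chemokines and 0.13 for interferon-induced genes. Without KO replicates 1 and 3 instead, the interferon-induced list had 6 of 16 higher and a median of -0.07, and the medians of the other 5 stayed positive (0.14 to 0.50). Neutrophil genes, read here as markers of blood cells in the tissue, were higher in 10 of 11 (median 0.71, 1 at an unadjusted p under 0.05). Their list mean was 8.73, 7.82, 10.39, 7.83 and 7.35 in KO arrays, against 7.97, 6.79, 8.52 and 7.66 in WT arrays, and the median difference was -0.19 without the 3 arrays. Without KO replicates 1 and 3 the neutrophil median was -0.07, with 4 of 11 higher. The list of lymphocyte markers had 0 tested members of 16.

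**Figure D4:**
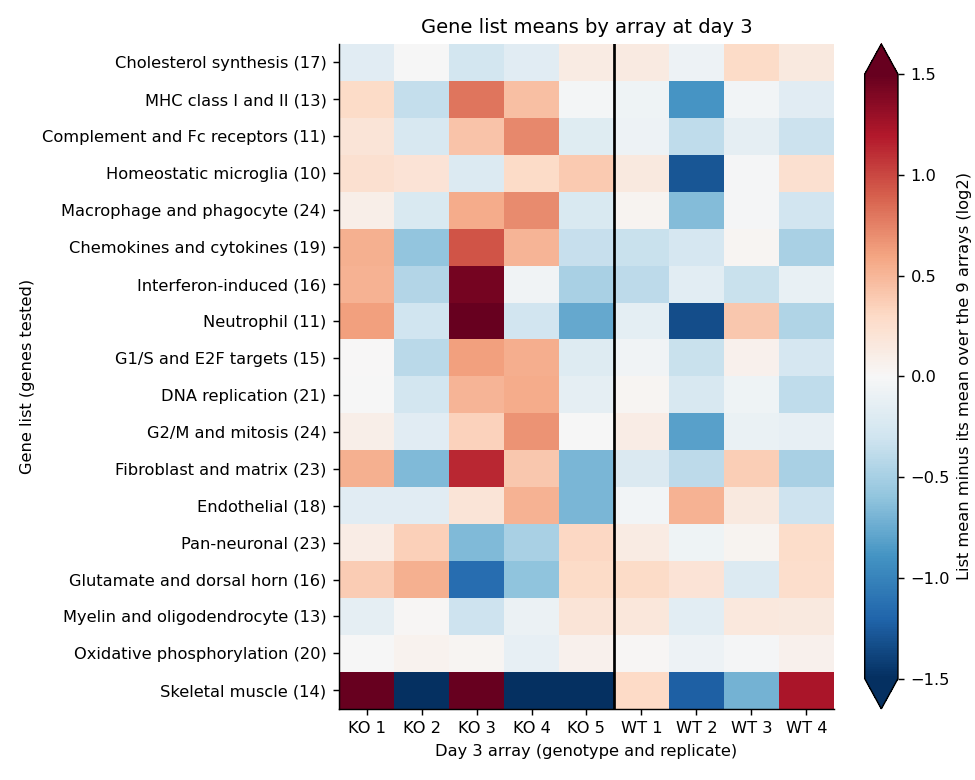
Mean log2 signal of 18 gene lists (rows, with the number of genes tested) in the 5 KO arrays and 4 WT arrays of day 3 (columns), as the difference from the list's mean over the 9 arrays; red is higher, blue lower, and colours saturate at 1.5 log2 units on either side. KO replicates 3 and 4 are the highest 2 arrays and WT replicate 2 the lowest in the MHC, complement and mitosis lists, and the skeletal muscle list reaches 10.76 in KO replicate 1 and 13.08 in KO replicate 3.

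Cell cycle genes read slightly higher in KO cords at day 3. Of 60 tested genes of G1/S, DNA replication and mitosis, 58 had a higher mean in KO, 15 had an unadjusted p under 0.05 and 0 passed the threshold. Their median difference was 0.35. Of all genes, 49.4% had a higher mean in KO and 11.3% had such a p, 6.89% higher. All 24 tested G2/M and mitosis genes were higher (median 0.40). Their list mean was 7.80, 7.55, 8.06, 8.38 and 7.70 in KO arrays, against 7.83, 6.90, 7.61 and 7.59 in WT arrays. KO replicate 4 was the highest array and WT replicate 2 the lowest, and the other 7 overlapped. With the 3 arrays that stood apart left out, 10 of the 24 were higher and the median was -0.01, and that of DNA replication was -0.02. The G1/S list then had 4 of 15 higher and a median of -0.12.

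The genotype difference of these genes at day 3 was set against that at day 1. With all arrays the medians of the 2 days lay on opposite sides of 0, and the day 3 sign rested on the 3 arrays that stood apart. Over all probe sets, 111 of 24573 (0.452%) had a genotype difference that changed between day 1 and day 3, 100 towards a more positive value at day 3 (0.407%) and 11 towards a more negative one (0.0448%). They stood for 76 genes (0.633% of 11998), 66 more positive and 10 more negative. Of the 60 cell cycle genes 20 were among them, which is 33.3% of the list and 26.3% of the 76 genes. The median genotype difference of the 60 was 0.35 at day 3 and -0.67 at day 1, and the day 3 arrays enter both this test and that of day 3 alone.

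Cdk1, the kinase that starts mitosis, read 9.02, 8.75, 9.21, 9.68 and 8.79 in KO arrays at day 3, against 9.14, 8.30, 8.91 and 8.88 in WT arrays, a difference of 0.29 ± 0.20. At day 1 it read 4.498, 3.99, 4.03 and 3.91 in KO arrays, against 6.55, 6.07, 6.13, 6.77 and 6.00 in WT arrays, a difference of -2.20 with no overlap. The change of the genotype difference was 2.48 ± 0.28 (adjusted p = 9.03e-06), and every day 3 array read above every day 1 array. Top2a, the topoisomerase of dividing cells, averaged 9.99 in KO arrays and 9.58 in WT arrays at day 3. At day 1 its means were 4.26 in KO arrays and 7.14 in WT arrays. The change of its genotype difference was 3.29, and that of Cdca5, Cep55 and Ccna2, genes of chromosome cohesion, cell separation and cyclin A2, was 2.64, 2.74 and 2.77.

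For these 5 genes the change kept its call in all 21 alternatives, including those without the 3 arrays that stood apart and without the 2 day 1 WT arrays whose labels conflict. The count of probe sets was 31 without the 3 arrays that stood apart, 46 without the 2 day 1 arrays and 30 with the day 1 and day 3 arrays alone. Among the 10 genes more negative at day 3 were Npas2, a clock transcription factor (difference -0.46 at day 3), and Ddc, the decarboxylase of dopamine and serotonin synthesis (difference -0.48 at day 3).

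**Figure D5:**
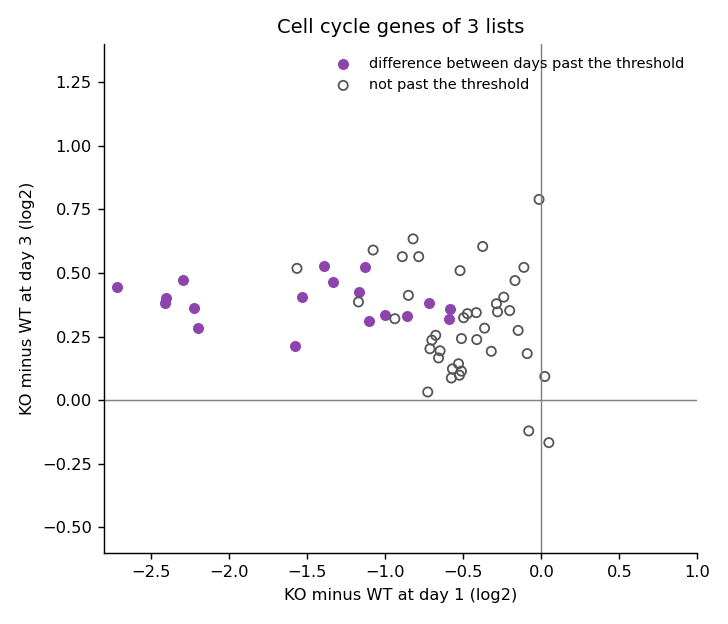
Genotype difference (KO minus WT, log2) of the tested cell cycle genes at day 1 (horizontal axis) and day 3 (vertical axis). Each point is a gene, filled where the difference between the days passed the threshold (20 of 60 genes). Mki67 and Top2a, both past it, are not shown, as their day 1 values of -3.52 and -2.88 lie beyond the left edge. At day 3, 58 of the 60 lie above 0, with a median of 0.35, and at day 1 the median is -0.67.

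Neuronal genes leaned the other way from the immune genes. Of 23 tested pan-neuronal genes 22 had a lower mean in KO (median -0.17), 1 at an unadjusted p under 0.05 and 0 past the threshold. That 1 is near the share of all genes lower at that level, 4.43%. Of 16 glutamate and dorsal horn genes 15 were lower (median -0.26), and of 11 GABA and glycine genes 9 (median -0.20). The pan-neuronal list mean was 11.11, 11.36, 10.34, 10.51 and 11.31 in KO arrays, against 11.12, 10.93, 11.04 and 11.27 in WT arrays, and KO replicates 3 and 4 were the lowest 2 arrays. With the 3 arrays that stood apart left out, the medians were 0.13 for the pan-neuronal, 0.30 for the glutamate and 0.13 for the GABA and glycine list, all opposite in sign to those with them. Without KO replicates 1 and 3 they were -0.03, -0.07 and -0.01.

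Rbfox3, the neuronal nuclear protein NeuN, read 11.06, 11.36, 9.74, 9.97 and 11.33 in KO arrays, against 11.12, 11.03, 10.59 and 11.19 in WT arrays (difference -0.29 ± 0.23, adjusted p = 0.649). Uchl1, a ubiquitin hydrolase of neurons, read 10.31, 10.78, 10.33, 10.38 and 10.65 in KO arrays, against 10.62, 10.71, 10.76 and 10.81 in WT arrays (difference -0.23 ± 0.09, adjusted p = 0.394). In Rbfox3 the low readings were those of KO replicates 3 and 4, while in Uchl1 KO replicate 1 was the lowest.

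Of 13 tested myelin and oligodendrocyte genes 11 were lower in KO (median -0.16, and -0.14 without the 3 arrays). Among them 3 had an unadjusted p under 0.05, where 4.43% of all genes were lower at that level, and 0 passed the threshold. Mal, a myelin membrane protein, read 13.66, 13.87, 13.40, 13.76 and 13.80 in KO arrays, against 13.95, 13.98, 14.001 and 13.88 in WT arrays (difference -0.26 ± 0.09, adjusted p = 0.394), and the groups did not overlap. The astrocyte lists, of interest because trkB.T1 is abundant in astrocytes, had medians of -0.03 over 22 reactive genes and 0.06 over 14 homeostatic genes. Without WT replicate 2 alone the homeostatic median was -0.26, with 1 of 14 higher in KO. Gfap, the intermediate filament of astrocytes, averaged 13.35 ± 0.11 in KO cords (SD, n = 5) and 13.31 ± 0.38 in WT cords (SD, n = 4). Agt, angiotensinogen, which astrocytes make, read 8.96, 9.42, 8.09, 8.76 and 8.99 in KO arrays, against 9.52, 8.94, 9.39 and 9.54 in WT arrays (difference -0.50 ± 0.18, adjusted p = 0.394). Oligodendrocyte precursor genes had a median of -0.003 over 11 genes.

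Genes of basic metabolism and stress had medians near 0. The median was 0.02 over 20 oxidative phosphorylation genes, with list means of 12.68 ± 0.07 in KO cords and 12.67 ± 0.06 in WT cords. It was 0.01 over 14 genes of stress and the unfolded protein response and 0.004 over 19 immediate early genes. Of 12 circadian genes 10 were lower in KO (median -0.17), but the median was 0.12 without the 3 arrays that stood apart. With all arrays 2 were lower at an unadjusted p under 0.05, as were 4.43% of all genes. Endothelial genes were lower in 15 of 18 (median -0.16, and -0.31 without the 3 arrays), fibroblast and matrix genes higher in 20 of 23 (median 0.30, and -0.19 without the 3 arrays). Without KO replicates 1 and 3, 7 of the 23 fibroblast and matrix genes were higher, with a median of -0.10. The endothelial median was then -0.215. Of the Hox genes that mark the level of the cord, 12 of 16 were lower in KO (median -0.13, and 0.19 without the 3 arrays).

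The spread within each genotype had its own genes. The standard deviation exceeded 1 log2 unit in 397 probe sets (1.62%) among KO arrays and in 481 (1.96%) among WT arrays, in 95 of them in both, against 14 to 194 in the other groups. It was larger in KO than in WT for 54.2% of probe sets.

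Among KO arrays the 8 genes with the largest SD were all genes of skeletal muscle: Myot, Ttn, Myh4, Tnnc2, Tnnt3, Smpx, Ckm and Myh2, which encode sarcomere and other muscle proteins. Myh4, the fast myosin heavy chain, read 12.23, 5.79, 14.42, 4.42 and 4.36 in KO arrays, against 9.83, 7.91, 8.28 and 10.88 in WT arrays. KO replicates 1 and 3 were high, and the other KO arrays lay below every WT array. The mean of the 14 muscle genes was 10.76, 5.42, 13.08, 4.87 and 4.74 in KO arrays, against 8.00, 6.47, 6.98 and 8.92 in WT arrays. No member differed at an unadjusted p under 0.05, and the median difference was -0.07. Without KO replicates 1 and 3 none of the 14 was higher in KO, 9 had an unadjusted p under 0.05 and the median was -2.98. Muscle lies next to the vertebral column and is not part of the cord, and the part of such RNA in the other results was not tested beyond the values without KO replicates 1 and 3. Without those 2 arrays 7 probe sets passed: 2 of Ntrk2, 2 of Cd59a, Dapk1, the unnamed 1431213_a_at and Ercc8 (difference -1.04, adjusted p = 0.0052).

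Among WT arrays the 8 genes were Gpr17, Gsta3, Apoc1, Fads2b, Ibsp, Trim63, Rbp4 and Slc10a6. Gpr17, a receptor of differentiating oligodendrocyte precursors, read 8.29, 9.37, 8.14, 8.67 and 8.44 in KO arrays, against 9.21, 2.58, 8.65 and 9.04 in WT arrays, so WT replicate 2 alone was low. Slc10a6, a transporter of sulfated steroids, read 2.17, 2.17, 3.00, 2.19 and 2.17 in KO arrays, against 2.17, 6.79, 2.17 and 2.17 in WT arrays. WT replicate 2 stood highest of the 9, and KO replicate 3 was the next. In day 1 cords Slc10a6 averaged 6.55 ± 0.43 in KO (SD, n = 4) and 4.83 ± 0.83 in WT (SD, n = 5), while sham and day 7 cords of both genotypes read 2.17. Gpr17 averaged 5.66 and 5.45 in KO and WT at day 1. Apoc1, an apolipoprotein of lipid-laden phagocytes, read 6.54, 7.05, 6.56, 6.60 and 6.40 in KO arrays, against 7.13, 5.64, 6.45 and 11.29 in WT arrays, with WT replicate 4 high, and Rbp4 and Gsta3 were also highest in that array. Trim63, a ubiquitin ligase of muscle, read 7.47, 2.47, 10.04, 2.44 and 2.17 in KO arrays, against 3.28, 8.14, 3.68 and 7.05 in WT arrays.

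Each day 3 array was also correlated, across genes, with the mean profile of each time point, after removal of each gene's overall mean. These are descriptions across genes, which are not independent replicates. WT replicate 2 correlated at 0.475 with day 3 and 0.335 with day 1. The other 8 arrays correlated at 0.61 to 0.859 with day 3 and at -0.227 to 0.03 with day 1. The 3′ minus 5′ log2 signal of the actin control, a measure of RNA integrity, was 1.22 to 1.81 in KO arrays and 1.39 to 1.54 in WT arrays. KO replicate 5 gave the highest value. It was also highest on the Gapdh control, at 0.517, against 0.166 to 0.284 in the other 8 arrays.

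Set against sham cords, the genotype difference at day 3 changed in 0 of 24573 probe sets by limma at an adjusted p of 0.05, with 1567 (6.38%) at an unadjusted p under 0.05, 894 more positive at day 3 (3.64%) and 673 more negative (2.74%). Without the array labelled sham KO replicate 2, 2 probe sets passed, both of Egr2, an immediate early transcription factor that is named here after its values were seen. Their genotype difference changed by -2.54 and -2.33 (adjusted p = 0.00107 and 0.0331). In sham without that array it was 2.80 and 2.59. The smallest p-values named Hoxa10, Plcg2, Hoxc10, Nkd1 and Hoxd9. Hoxa10, which marks the lumbar level of the cord, differed between genotypes by 0.16 at day 3 and 2.61 in sham, a change of -2.45 (adjusted p = 0.266). Plcg2, a phospholipase of immune cells, differed by 0.60 at day 3 and -0.56 in sham. Lists that mark other tissue also differed between the genotypes in sham. With all arrays the median sham difference was 3.14 over 14 skeletal muscle genes and 0.92 over 7 genes of Schwann cells and nerve roots. It was -0.55 over the neutrophil genes and -0.76 over erythroid and platelet genes. Whether this bears on Egr2 or the other changes against sham was not tested.

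Set against day 7, 2 probe sets (0.00814%) changed, of Myo1f, a myosin of leukocytes, and Mcoln3, a lysosomal ion channel. Myo1f on 1421618_at differed between genotypes by 0.97 at day 3 and -0.70 at day 7, a change of 1.67 ± 0.29 (adjusted p = 0.0428). Mcoln3 averaged 2.87 in KO and 2.43 in WT at day 3, near the floor, and 5.84 in KO and 6.75 in WT at day 7, a change of 1.36 ± 0.24 (adjusted p = 0.0428). By genes, the 5 smallest p-values were those of Mcoln3, Itga4, Cdk2, Slc25a45 and Cd37, the last 4 with an adjusted p of 0.295. Neither Myo1f nor Mcoln3 passed without the array labelled sham KO replicate 2 (0 probe sets, 1766 at an unadjusted p under 0.05), or in the fits without the 3 arrays that stood apart or with the day 3 and day 7 arrays alone, in which 0 probe sets passed (824 and 1013 at an unadjusted p under 0.05).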

How the data were processed

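RNA of mouse thoracic spinal cord was read on Affymetrix mouse genome arrays. The deposited log2 values were made by the authors with GCRMA, which corrects background and normalizes between arrays, per the submitters' processing notes. The labels name no unit, and the range of the values, 2.17 to 15.904, is that of log2 signal. Array controls (64 probe sets) were left out, and probe sets at log2 4 or more in at least 4 arrays were tested. limma 3.58.1 in R 4.3.3 (lmFit, eBayes, two-sided, Benjamini-Hochberg over 24573 probe sets, threshold 0.05) was fitted to all 34 arrays with 8 group means (26 residual degrees of freedom). Errors after differences are standard errors, and p-values measure the spread between arrays. The number of arrays limits the precision.

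Probe sets were named from the platform table, 34958 with 1 gene, 932 with several and 9211 with none, and a gene was taken by its brightest single-gene probe set. Named genes were those past the threshold and the smallest p-values up to 10 in each direction, the 5 smallest for each difference between time points, and the 8 largest SDs per genotype. The members, gene lists and tests were chosen with earlier results of these data known. For day 1 WT replicates 1 and 2 other label fields conflict with the title, which was followed. The steps were tested on simulated data in which a probe set had the same spread in every group. That test thus does not cover the larger spread of the day 3 groups. Alternatives covered filters, normalization, weights and left-out arrays; those without the 3 arrays that stood apart or the 2 high in muscle genes, and those without the array labelled sham KO replicate 2 other than against sham, were chosen after seeing the data. Promoter windows are from RefSeq.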

Additional observations from a re-analysis of the deposited data

Results flagged for a closer look

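Single arrays were set against the others of their group for each named gene and list mean. Of 90 such tests on genes 10 were beyond the critical value, and of 26 on list means 2. The genes included those named for the largest SD, so these counts cannot be set against a rate expected by chance. WT replicate 2 stood alone with a low reading of Pla2g15 (4.193), Myh2 (2.337), Gpr17 (2.578) and Fads2b (3.211), with a high reading of Slc10a6 (6.794), and with a low mean of the MHC list (7.248) and of the homeostatic astrocyte list (10.178). WT replicate 4 stood alone with a high reading of Gsta3 (9.042). Among KO arrays, replicate 3 was low in Dapk1 (7.313) and high in Slc10a6 (3.001), replicate 4 was high in the unnamed 1455869_at (11.085) and replicate 1 was low in Gsta3 (3.282), which lay at its floor.

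The genotype difference at day 3 differed from that at day 1, by a test of the difference itself, by 2.482 in Cdk1, 2.644 in Cdca5, 3.294 in Top2a, 2.739 in Cep55 and 2.771 in Ccna2. It differed from that at day 7 by 1.357 in Mcoln3, whose day 3 readings lay near the floor.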

How the results depend on the processing

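The 9 probe sets that passed at day 3 became 17 with no filter, 124 with a replicate block and 2 with the day 3 arrays alone, and 6 (without KO replicate 3, and again without KO replicate 4) to 45 (without KO replicate 2) when 1 array was left out; without KO replicate 5, WT replicate 1 and WT replicate 4 they were 34, 22 and 17. Against sham, 0 became 6 with no filter and 1 with the block, 0 in each fit without 1 day 3 array, and 2 without the array labelled sham KO replicate 2, which reads near the WT level on Ntrk2. Against day 1, 111 became 69 with no filter, 44 with array weights, 46 without the 2 arrays with conflicting labels, 522 with the block, 31 without the 3 arrays that stood apart, 35 without the 2 high in muscle genes, 30 with the arrays compared alone and 53 to 270 with 1 array left out (without KO replicate 4 and KO replicate 2). Against day 7, 2 became 0 with a filter at log2 5, an intensity trend, array weights, without the 2 arrays with conflicting labels, without the 3 or the 2 day 3 arrays, without the array labelled sham KO replicate 2 and with the arrays compared alone, 1 with quantile normalization, 36 with the block and 0 to 3 with 1 array left out. Same-numbered KO and WT arrays of day 3 correlated at 0.087, -0.061, 0.133 and -0.361, so the numbers name the samples and do not pair them. Without the 3 arrays that stood apart the median differences of the complement, G2/M and DNA replication lists were 0.062, -0.01 and -0.022. Over all settings 825 gene differences kept their side of the threshold, 45 passed it newly and 51 lost it, and none passed with the opposite sign. The difference of the dim Ntrk2 probe set 1446712_at, which passed in no setting, ranged from -0.128 to 0.049. The cause of these shifts was not tested. Insig1 lost its call in 10 of 21 settings and Nkd1 in 12. Readings near the floor bound what can be seen of dim genes.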
